A study of Mus musculus with 22 samples.

Results

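The 36 genes described here encode the glucose transporters, the enzymes from glucose to lactate, the lactate transporters, the switch of pyruvate into the mitochondrion, the oxygen sensing machinery and a set of genes known to respond to low oxygen. They were taken by symbol, by a rule that uses no measured value. All 36 were found among the 55011 genes of the count table, and all 36 were among the 15462 genes with enough counts to be tested.

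Glycolysis splits glucose to pyruvate. Lactate dehydrogenase turns pyruvate to lactate, which leaves the cell through monocarboxylate transporters, whereas pyruvate dehydrogenase sends it to mitochondrial respiration. The transcription factor HIF1 raises many of these genes when oxygen falls: its alpha subunit is marked for destruction by the prolyl hydroxylases EGLN1 and EGLN3 and the ligase subunit VHL when oxygen is present. Activated, dividing T cells are known for high glycolysis, and in mouse regulatory T cells (Treg) the transcription factor FOXP3 is known to restrain it.

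RNA was measured by Smart-seq in CD4+ T cells sorted from lymph nodes of C57BL/6 scurfy mice, which lack functional Foxp3. In the FOXP3 group (5 codes), CD4+ T cells of 10-day-old scurfy donors carried a vector with human FOXP3 and LNGFR, a shortened receptor for nerve growth factor that serves as surface reporter. In the WT Treg group (3 codes), the cells were transferred CD4+CD25+ cells with the CD45.1 allele, although the genotype field gives scurfy for these libraries too. In the LNGFR group (3 codes), CD4+ T cells of 10-day-old scurfy donors carried the reporter alone. No donor age is given for the WT Treg group. All recipients were scurfy mice given cyclophosphamide at 50 mg/kg at 10 days of age, cells on day 14, and human IL-2 at 1000 IU per g, given on 5 days and then every week. Each library came from 1000 cells sorted on day 50 by LNGFR or by CD45.1. The promoter that drives the transgene is not given in the sources used here. Reads of the human transgene were not analysed here. Titles give 2 libraries per code, which were summed and counted as 1 replicate. No label ties a code to 1 mouse, so p-values reflect how much codes vary, which may be technical in part. The labels also do not say what the letters of the codes mark (F and N in FOXP3, G in LNGFR, E, G and L in WT Treg). Donor, vector and sort marker differ between WT Treg and the other groups together with the cell type and cannot be told apart from it. In RNA of pooled cells, fewer expressing cells and less RNA per cell cannot be told apart either.

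The promoters of 3 members are shown because these genes stand at the centre of the results: Ldha, the most abundant member, and Ldhb and Slc16a3, the members with the smallest p in the comparisons of FOXP3 and of WT Treg with LNGFR. Capitals mark ACGTG, the core that HIF binds, on either strand; on the other strand it reads CACGT, and where both overlap the run reads CACGTG, which is also the E-box bound by MYC. Each sequence runs from 250 bases before to 50 bases after the RefSeq transcription start on GRCm38.p6.
Ldha, chr7:46845554-46845853, plus strand: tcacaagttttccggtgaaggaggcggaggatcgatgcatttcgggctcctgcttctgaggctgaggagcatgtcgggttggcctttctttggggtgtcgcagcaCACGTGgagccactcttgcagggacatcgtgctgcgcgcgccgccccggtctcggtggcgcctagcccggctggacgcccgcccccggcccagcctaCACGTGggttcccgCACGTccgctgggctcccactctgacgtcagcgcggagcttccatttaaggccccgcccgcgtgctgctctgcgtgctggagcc
Ldhb, chr6:142507908-142508207, minus strand: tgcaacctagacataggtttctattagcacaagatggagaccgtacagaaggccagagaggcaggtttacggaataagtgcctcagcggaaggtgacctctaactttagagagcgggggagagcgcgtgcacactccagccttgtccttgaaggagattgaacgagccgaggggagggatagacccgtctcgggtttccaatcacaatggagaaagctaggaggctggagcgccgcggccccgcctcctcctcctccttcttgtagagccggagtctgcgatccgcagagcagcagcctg
Slc16a3, chr11:120948817-120949116, plus strand: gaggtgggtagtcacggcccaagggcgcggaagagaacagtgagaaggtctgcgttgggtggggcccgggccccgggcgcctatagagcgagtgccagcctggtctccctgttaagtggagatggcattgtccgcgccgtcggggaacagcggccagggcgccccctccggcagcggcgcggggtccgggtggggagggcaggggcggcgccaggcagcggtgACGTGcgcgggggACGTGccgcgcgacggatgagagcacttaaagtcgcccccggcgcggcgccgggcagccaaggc
The Ldha window shown held 3 separate runs of the motif, the Slc16a3 window held 2 and the Ldhb window held 0. Ldha has another RefSeq window, at chr7:46846832-46847131, which held 0. Of the 33 members with a RefSeq window, 22 (66.7%) held the motif in at least 1 window, against 5886 of 27025 genes of the table (21.8%). Slc2a3, Ero1l and Bnip3l had no window. A match of letters is a description of the sequence and not a binding site.

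Codes held 1154626 to 10376164 gene counts. WT Treg code E2 was the shallowest, and 52% of its counts fell on the repeat-derived Gm10800 family, against 6.3% in LNGFR code G1 and 2.38% to 4.19% in the other 9 codes. Levels below are CPM (counts per 1e6 of a library) scaled by TMM. The 6 T cell markers summed to 2890 to 4630 CPM in FOXP3, 1850 to 4750 CPM in WT Treg and 4420 to 5780 CPM in LNGFR codes. Of these, Cd3e stood at 429 to 716 CPM in FOXP3, 307 to 801 CPM in WT Treg and 622 to 662 CPM in LNGFR codes. The others were uneven in LNGFR. In G1, Cd3d, Cd3g and Trac (1521, 1856 and 923 CPM) lay above G2 and G3, and Cd4 and Lck (255 and 605 CPM) below them. The 4 Treg markers summed to 1660 to 2670 CPM in FOXP3, 1830 to 4160 CPM in WT Treg and 616 to 1190 CPM in LNGFR codes. Of these, mouse Foxp3, the gene disabled in scurfy, stood at 162 to 313 CPM in FOXP3, 704 to 1630 CPM in WT Treg and 42.7 to 143 CPM in LNGFR codes. Il2ra and Ikzf2 were also lower in every LNGFR code than in any other code. Ctla4 was ordered otherwise, at 838 to 1410 CPM in FOXP3, 417 to 971 CPM in WT Treg and 276 to 708 CPM in LNGFR codes, with E2 below G2 and G3. The 10 B cell markers summed to 5466 CPM in FOXP3 code N3 and 1605 CPM in G1, against 140 to 620 CPM in the other codes. The sum of 12 genes of dividing cells was 1574 to 2287 CPM in 4 FOXP3 codes and 427.8 CPM in N3, 378 to 1008 CPM in WT Treg and 433 to 559 CPM in LNGFR codes. Results are therefore given with and without E2 and, as a choice made after values were seen, without E2, G1 and N3. All 10 myeloid markers were detected in every group, at sums of 11.7 to 21.9 CPM in FOXP3, 28.1 to 73.8 CPM in WT Treg and 6.35 to 28.6 CPM in LNGFR codes. The 6 plasma cell markers, all detected in every group, summed to 326 to 669 CPM in FOXP3, 191 to 434 CPM in WT Treg and 564 to 751 CPM in LNGFR codes. The 6 markers of CD8 T and NK cells, likewise all detected, summed to 41.0 to 107 CPM in FOXP3, 45.9 to 80.1 CPM in WT Treg and 80.0 to 254 CPM in LNGFR codes. Their part in the differences from LNGFR was not tested. Of 6 erythroid markers 2 were at 0 in FOXP3, 3 in WT Treg and 2 in LNGFR.

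**Figure D1:**
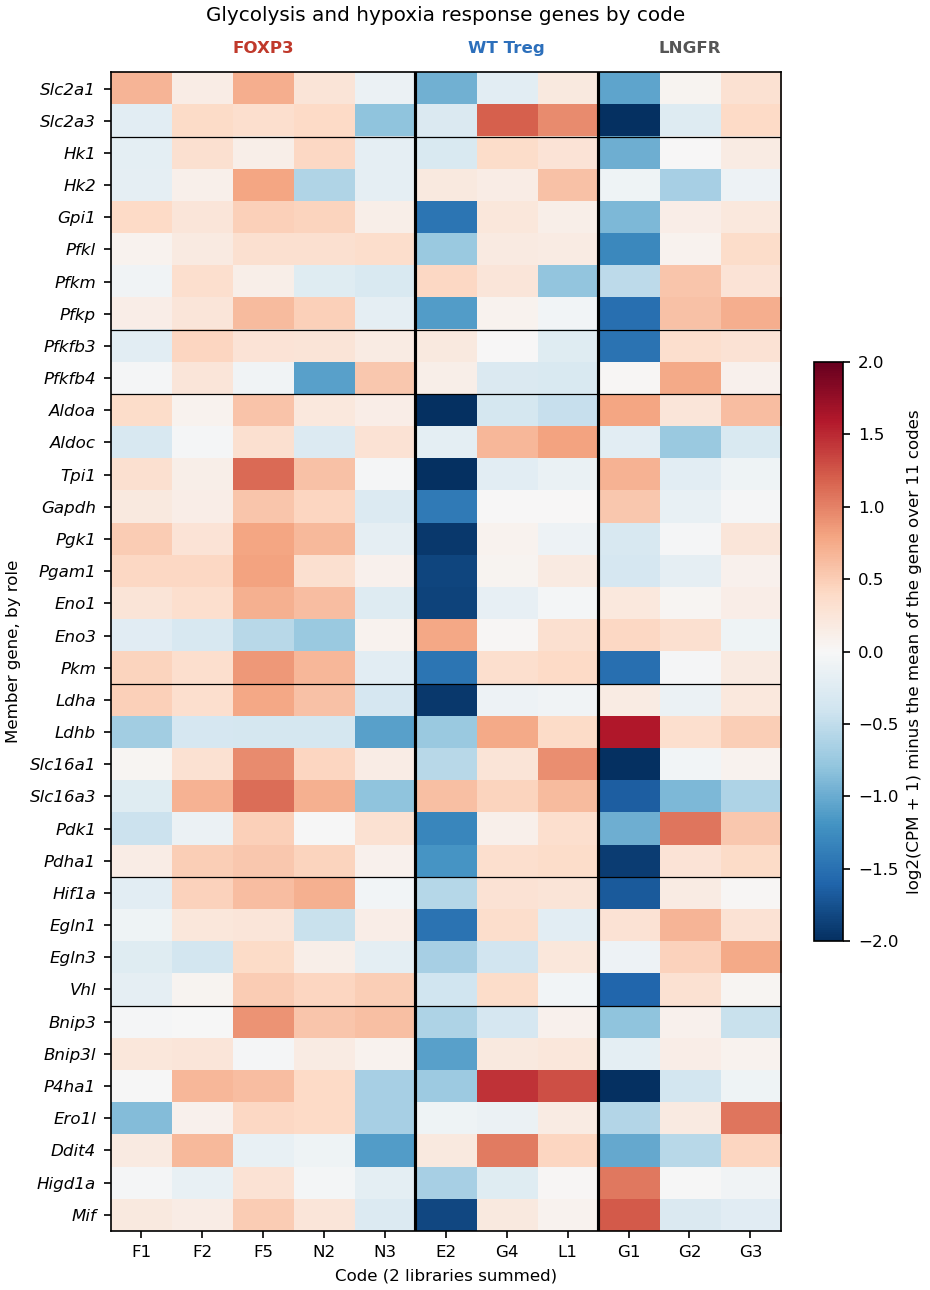
Level of the 36 members in each of the 11 codes, as log2(CPM + 1) minus the gene's mean over the codes, with the colour scale limited at 2 in either direction. Rows are grouped by role and columns by group. Most rows are blue in WT Treg code E2, and G1 ranges from dark blue (Slc2a3, Slc16a1, P4ha1) to red (Ldhb, Higd1a, Mif).

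Per kb of exon, the order of levels within the list spanned a wide range. Ldha was the highest, with a mean over the 3 group means of 465 CPM per kb, followed by Aldoa (322), Mif (223), Pkm (204), Gapdh (133) and Tpi1 (101 CPM per kb). The lowest were Hk2 (1.39) and Pfkfb4 (1.3 CPM per kb), a hexokinase and a bifunctional enzyme that sets fructose-2,6-bisphosphate. In group means Ldha stood at 1977 ± 508 CPM in FOXP3 (SD, n = 5), 1057 ± 578 CPM in WT Treg (n = 3) and 1583 ± 184 CPM in LNGFR (n = 3). Neighbours such as Pkm and Mif, or Hk2 and Pfkfb4, overlapped within their spread over codes. Exon lengths are those of all annotated exons joined and overstate the length of many mRNAs. The symbol Aldoa covers 2 annotated genes, of which the entry given with its values below was used for its length.

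With all codes, edgeR's quasi-likelihood test called no member in any comparison, while DESeq2 and limma made a few calls. In FOXP3 against LNGFR, edgeR called 84 of 15462 genes (0.543%) at a Benjamini-Hochberg adjusted p under 0.05 and 0 of 36 members. In WT Treg against LNGFR it called 201 genes (1.3%) and 0 members, and in FOXP3 against WT Treg 40 genes (0.259%) and 0 members. Shares of this size leave less than 1 call in 36 genes, so the counts of 0 are near the background. Unadjusted p was under 0.05 for 3 members (8.33%) against 10.3% of all genes in FOXP3 against LNGFR, for 4 (11.1%) against 14.8% in WT Treg against LNGFR, and for 5 (13.9%) against 16.5% in FOXP3 against WT Treg.

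Most members had log2 fold changes within 2-fold. For FOXP3 against LNGFR the median was 0.30, beside -0.02 over all genes tested, with 25 of 36 above 0 (48.9% of all genes), 34 within 2-fold (83.9% of all genes) and a range of -1.56 to 1.52. It was 0.074 without G1 and 0.57 without G3. The median of WT Treg against LNGFR was -0.09, beside 0.08 over all genes, with 16 of 36 above 0 (54.9%), 31 within 2-fold (75.9%) and a range of -1.36 to 1.66. It was -0.30 without L1 and 0.11 without G3. For FOXP3 against WT Treg it was 0.23, beside 0.01 over all genes, with 26 above 0 (50.4%), 34 within 2-fold (78.3%) and a range of -0.95 to 1.08. It was 0.56 without G4 and 0.55 without L1. Without E2 the medians were 0.31, 0.07 and 0.08 in the same order of comparisons. With all codes DESeq2 called 1 member in FOXP3 against LNGFR (Ldhb, beside 2.15% of the genes to which it gave an adjusted p), 2 in WT Treg against LNGFR (Aldoa and Slc16a3, beside 5.26%) and 1 in FOXP3 against WT Treg (Aldoa, beside 15.2%). Limma with quality weights called 2 in FOXP3 against LNGFR (Ldhb and Slc16a3, beside 6.78% of all genes), 3 in WT Treg against LNGFR (Aldoa, Aldoc and P4ha1, beside 5.61%) and 3 in FOXP3 against WT Treg (Aldoa, Aldoc and Ldhb, beside 6.89%). In FOXP3 against WT Treg the 1 member that DESeq2 called is a smaller share of the 36 than that of all genes. So are the 2 that limma called in FOXP3 against LNGFR. The other counts of DESeq2 and limma are near the background.

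Codes of the groups compared did not overlap for few members. FOXP3 and LNGFR codes were apart for 0 members higher in FOXP3 (4.35% of all genes) and for 2 lower, Ldhb and Egln1 (4.67% of all genes). WT Treg codes were above all LNGFR codes for 3 members, Hk2, Aldoc and Slc16a3 (7.8% of all genes), and below them for 2, Aldoa and Eno1 (8.82% of all genes). FOXP3 codes were above all WT Treg codes for 2 members, Aldoa and Tpi1 (6.12% of all genes), and below for 0 (6.25% of all genes). These counts are near the background. Without E2, WT Treg lay above LNGFR for 11 members, a larger share than the 17.1% of all genes. The 11 were Slc2a3, Hk1, Hk2, Aldoc, Pkm, Slc16a1, Slc16a3, Hif1a, Bnip3l, P4ha1 and Ddit4. It lay below for 3, Pfkfb4, Aldoa and Eno1 (14.5% of all genes). FOXP3 lay above WT Treg without E2 for Aldoa and Tpi1 (9.02% of all genes) and below for Slc2a3, Aldoc, Ldhb and P4ha1 (11.8% of all genes).

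**Figure D2:**
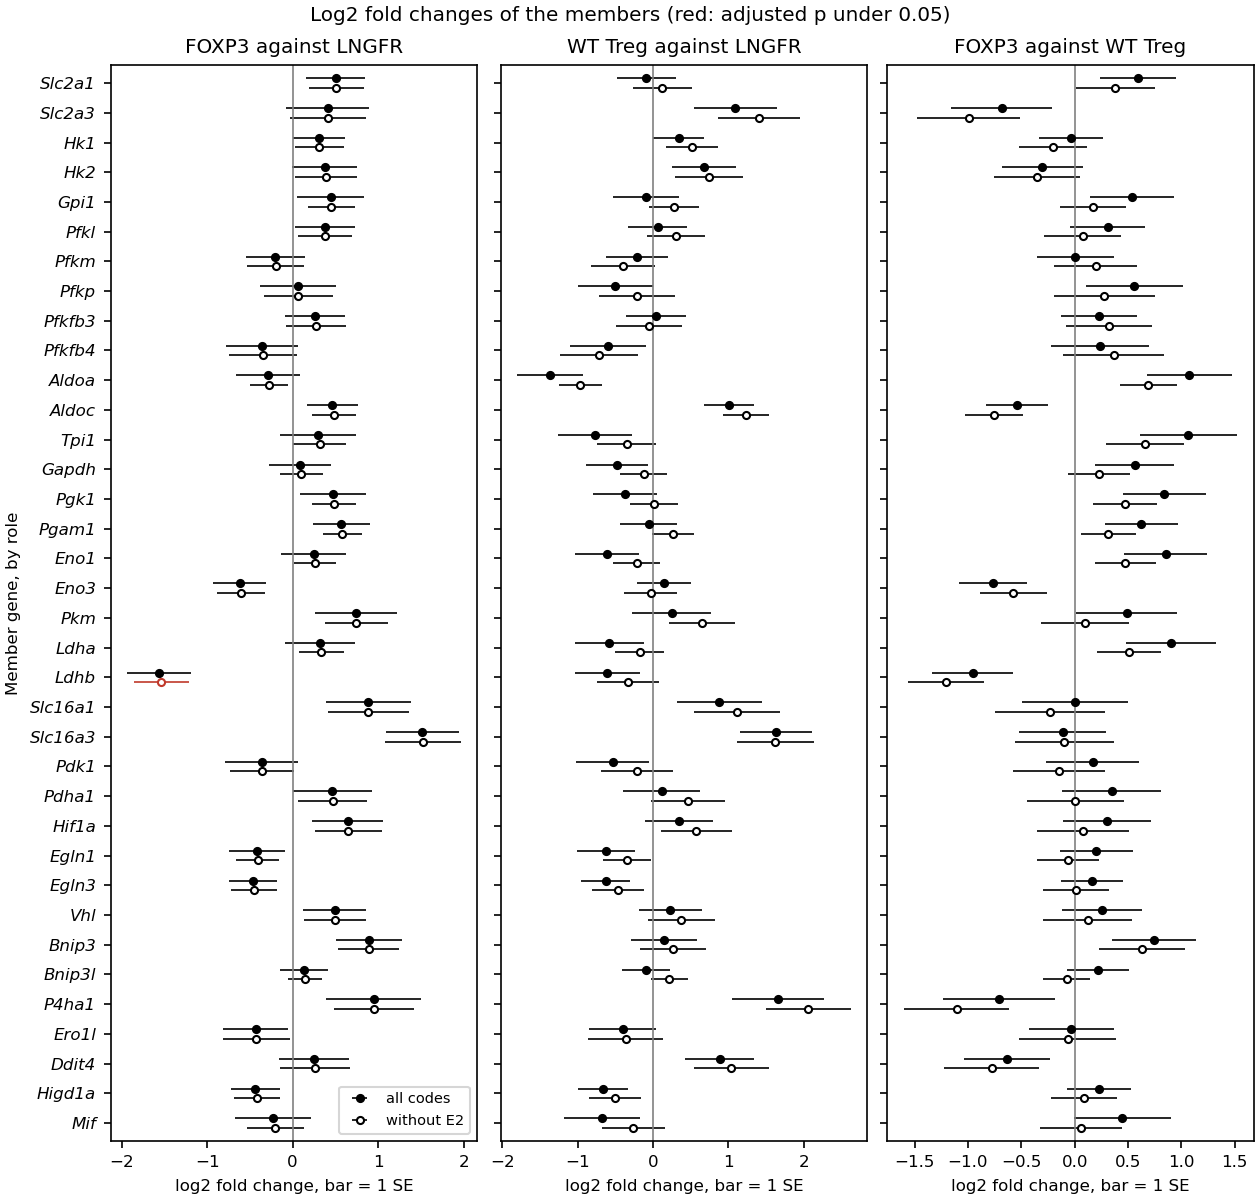
Log2 fold change of each member with a bar of 1 SE in the 3 comparisons, with all codes (filled) and without E2 (open). The only red point, past an edgeR adjusted p of 0.05, is Ldhb in FOXP3 against LNGFR without E2 at -1.54; the others straddle 0 or miss the threshold.

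Glucose enters T cells through the transporters GLUT1 (Slc2a1) and GLUT3 (Slc2a3). Slc2a1 had 51.7, 35.5, 53.6, 38.2 and 29.2 CPM in FOXP3 codes F1, F2, F5, N2 and N3, 15.8, 27.3 and 36.5 CPM in WT Treg codes E2, G4 and L1, and 14.8, 33.0 and 39.6 CPM in LNGFR codes G1, G2 and G3. The groups overlapped, and FOXP3 against LNGFR gave a log2 fold change of 0.50 with an SE of 0.35 (edgeR adjusted p = 0.67). Slc2a3 had 54.3, 82.5, 80.3, 83.4 and 35.6 CPM in FOXP3 codes, 51.3, 146 and 122 CPM in WT Treg codes, and 14.5, 52.7 and 83.6 CPM in LNGFR codes, in the same order of codes. G4 and L1 were above every other code, while E2 lay among the FOXP3 codes. The Slc2a3 difference of WT Treg against LNGFR was 1.09 ± 0.55 on the log2 scale (adjusted p = 0.369), and 1.41 ± 0.55 without E2 (adjusted p = 0.305).

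Of the 6 genes for the hexose steps, 5 had a log2 fold change above 0 in FOXP3 against LNGFR, and the 6 ranged from -0.21 to 0.45. In WT Treg against LNGFR 3 were above 0 (-0.50 to 0.68) and in FOXP3 against WT Treg 4 (-0.30 to 0.56). Gpi1, the glucose-6-phosphate isomerase, had 700, 631, 738, 723 and 576 CPM in FOXP3 codes, 192, 619 and 576 CPM in WT Treg codes, and 284, 586 and 614 CPM in LNGFR codes. E2 and G1 were the low codes and the rest lay close together. Its log2 fold change was 0.44 ± 0.39 in FOXP3 against LNGFR (adjusted p = 0.729) and 0.54 ± 0.39 in FOXP3 against WT Treg (adjusted p = 0.54). Hk2, the inducible hexokinase that starts glycolysis, had 6.93, 8.57, 14.5, 4.88 and 6.86 CPM in FOXP3 codes, 9.21, 8.90 and 12.4 CPM in WT Treg codes, and 7.40, 4.64 and 7.31 CPM in LNGFR codes. All 3 WT Treg codes lay above all LNGFR codes, within the range of the FOXP3 codes (log2 fold change of WT Treg against LNGFR 0.68 ± 0.43, adjusted p = 0.47). Hk1, the constitutive hexokinase, and the phosphofructokinases Pfkl, Pfkm and Pfkp made up the rest. Of these, Pfkp, the platelet type, stood at 281 ± 59.7 CPM in FOXP3, 189 ± 73.5 CPM in WT Treg and 269 ± 164 CPM in LNGFR.

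PFKFB3 and PFKFB4 make and break fructose-2,6-bisphosphate, the activator of phosphofructokinase. Pfkfb3 had 25.7, 40.7, 36.2, 35.8 and 33.5 CPM in FOXP3 codes, 34.2, 30.1 and 25.04 CPM in WT Treg codes, and 10.1, 38.1 and 36.7 CPM in LNGFR codes, and stood apart in G1 alone. Its log2 fold change was 0.23 ± 0.36 in FOXP3 against WT Treg (adjusted p = 0.791). Pfkfb4 had 5.87, 7.26, 5.61, 2.28 and 9.15 CPM in FOXP3 codes, 6.58, 4.69 and 4.66 CPM in WT Treg codes, and 6.05, 10.7 and 6.35 CPM in LNGFR codes. These overlapped, with log2 fold changes of -0.36 ± 0.43 in FOXP3 against LNGFR (adjusted p = 0.796) and -0.60 ± 0.51 in WT Treg against LNGFR (adjusted p = 0.605).

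The 9 genes of the triose steps, from aldolase to pyruvate kinase, had log2 fold changes of -0.62 to 0.74 in FOXP3 against LNGFR with 7 above 0, of -1.36 to 1.01 in WT Treg against LNGFR with 3 above 0, and of -0.77 to 1.08 in FOXP3 against WT Treg with 7 above 0. The aldolase gene Aldoa (ENSMUSG00000030695.16, GRCm38 chromosome 7, 126795234 to 126800751) had 1109, 902, 1279, 990 and 937 CPM in FOXP3 codes, 187, 672 and 622 CPM in WT Treg codes, and 1486, 1016 and 1322 CPM in LNGFR codes. Every WT Treg code lay below every code of both other groups, also with E2 set aside. The log2 fold change of WT Treg against LNGFR was -1.36 ± 0.43 (edgeR adjusted p = 0.177), and -0.96 ± 0.29 without E2 (adjusted p = 0.148). FOXP3 against WT Treg had 1.08 ± 0.40 (adjusted p = 0.181), and 0.69 ± 0.26 without E2 (adjusted p = 0.429). With all codes the other tools called Aldoa in both comparisons, at adjusted p = 0.0113 by DESeq2 and 0.0399 by limma in WT Treg against LNGFR, and at 0.0239 by DESeq2 and 0.03 by limma in FOXP3 against WT Treg.

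Aldoc, the aldolase best known from brain, ran the other way. It stood at 14.0 ± 3.13 CPM in FOXP3, 19.7 ± 6.85 CPM in WT Treg and 10.2 ± 2.06 CPM in LNGFR. In WT Treg against LNGFR its log2 fold change was 1.01 ± 0.34 (adjusted p = 0.204), and 1.23 ± 0.31 without E2 (adjusted p = 0.0721). Limma called Aldoc with all codes in that comparison (adjusted p = 0.00654) and in FOXP3 against WT Treg (adjusted p = 0.0249). Eno3, the muscle enolase, had 7.40, 6.89, 5.72, 4.88 and 9.36 CPM in FOXP3 codes, 15.8, 9.06 and 11.3 CPM in WT Treg codes, and 12.1, 11.4 and 8.27 CPM in LNGFR codes. FOXP3 codes were the lower ones except N3, with a log2 fold change of -0.62 ± 0.31 against LNGFR (adjusted p = 0.536). Tpi1, the triose phosphate isomerase, stood at 256 to 572 CPM in FOXP3 and 56.6 to 238 CPM in WT Treg codes (log2 fold change 1.07 ± 0.46, adjusted p = 0.258, and 0.66 ± 0.36 without E2, adjusted p = 0.714).

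In the branch between lactate and respiration lay the member nearest to a call. Ldhb encodes the B subunit of lactate dehydrogenase, the form that favours lactate to pyruvate (ENSMUSG00000030246.11, GRCm38 chromosome 6, 142490249 to 142507957, minus strand). It had 6.81, 9.12, 8.95, 8.92 and 5.01 CPM in FOXP3 codes, 6.58, 20.4 and 15.6 CPM in WT Treg codes, and 37.7, 15.1 and 16.9 CPM in LNGFR codes. Every FOXP3 code lay below every LNGFR code, and below WT Treg codes G4 and L1 but not E2. With all codes the log2 fold change of FOXP3 against LNGFR was -1.56 ± 0.37 (edgeR adjusted p = 0.0887, DESeq2 0.015, limma 0.0143).

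Without E2 Ldhb was the 1 member of 36 that passed, lower in FOXP3 than in LNGFR at -1.54 ± 0.32 (edgeR adjusted p = 0.0361), beside 246 of 16065 genes (1.53%). A count of 1 in 36 is near that background. E2 belongs to neither of these groups and enters the fit only through the shared spread, the filter and the scaling. No member passed without E2 in WT Treg against LNGFR (299 genes, 1.86%) or in FOXP3 against WT Treg (66 genes, 0.411%). The highest Ldhb level was that of G1, with 108 counts in its first library and 4 in its second, and without G1 the log2 fold change of FOXP3 against LNGFR was -1.04 (adjusted p = 0.368). G1 is also a code with B cell RNA, whose part was not tested. Against WT Treg, FOXP3 had an Ldhb difference of -0.95 ± 0.38 (adjusted p = 0.219), and -1.21 ± 0.36 without E2 (adjusted p = 0.231), and limma called it with all codes (adjusted p = 0.00954).

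Slc16a3 encodes MCT4, the lactate exporter of glycolytic cells (ENSMUSG00000025161.16, GRCm38 chromosome 11, 120948480 to 120960868, plus strand). It had 14.9, 29.5, 39.9, 30.0 and 9.80 CPM in FOXP3 codes, 27.6, 24.7 and 28.4 CPM in WT Treg codes, and 5.04, 9.12 and 11.3 CPM in LNGFR codes. WT Treg codes all lay above LNGFR codes, and so did the FOXP3 codes except N3, which overlapped them. The log2 fold change was 1.52 ± 0.43 in FOXP3 against LNGFR (adjusted p = 0.171) and 1.63 ± 0.47 in WT Treg against LNGFR (adjusted p = 0.149). With all codes limma called Slc16a3 in FOXP3 against LNGFR (adjusted p = 0.0432) and DESeq2 in WT Treg against LNGFR (adjusted p = 0.0422). Without N3 both passed in edgeR, beside 1.83% and 1.92% of all genes, at 1.71 ± 0.36 for FOXP3 (adjusted p = 0.0306) and, although N3 is in neither group, at 1.63 ± 0.38 for WT Treg (adjusted p = 0.0499). Between FOXP3 and WT Treg it was -0.11 ± 0.41 (adjusted p = 0.918), with a 95% interval of -0.91 to 0.69.

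For the other 4 genes of this branch edgeR made no call with all codes or without E2. Ldha differed by 0.32 ± 0.41 on the log2 scale in FOXP3 against LNGFR (adjusted p = 0.81) and 0.90 ± 0.42 in FOXP3 against WT Treg (adjusted p = 0.31). Without E2 that last value was 0.51 ± 0.30 (adjusted p = 0.751). Slc16a1, which encodes the bidirectional lactate transporter MCT1, stood at 19.0 ± 5.37 CPM in FOXP3, 18.0 ± 9.28 CPM in WT Treg and 9.96 ± 7.20 CPM in LNGFR. Pdk1, the kinase that shuts pyruvate dehydrogenase, stood at 63.4 ± 15.7 CPM in FOXP3, 54.7 ± 27.5 CPM in WT Treg and 81.3 ± 48.6 CPM in LNGFR. Pdha1, the catalytic subunit of that enzyme, stood at 192 ± 27.3 CPM in FOXP3, 150 ± 72.5 CPM in WT Treg and 139 ± 86.2 CPM in LNGFR. The SDs of both exceeded the differences between the means of WT Treg and LNGFR.

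**Figure D3:**
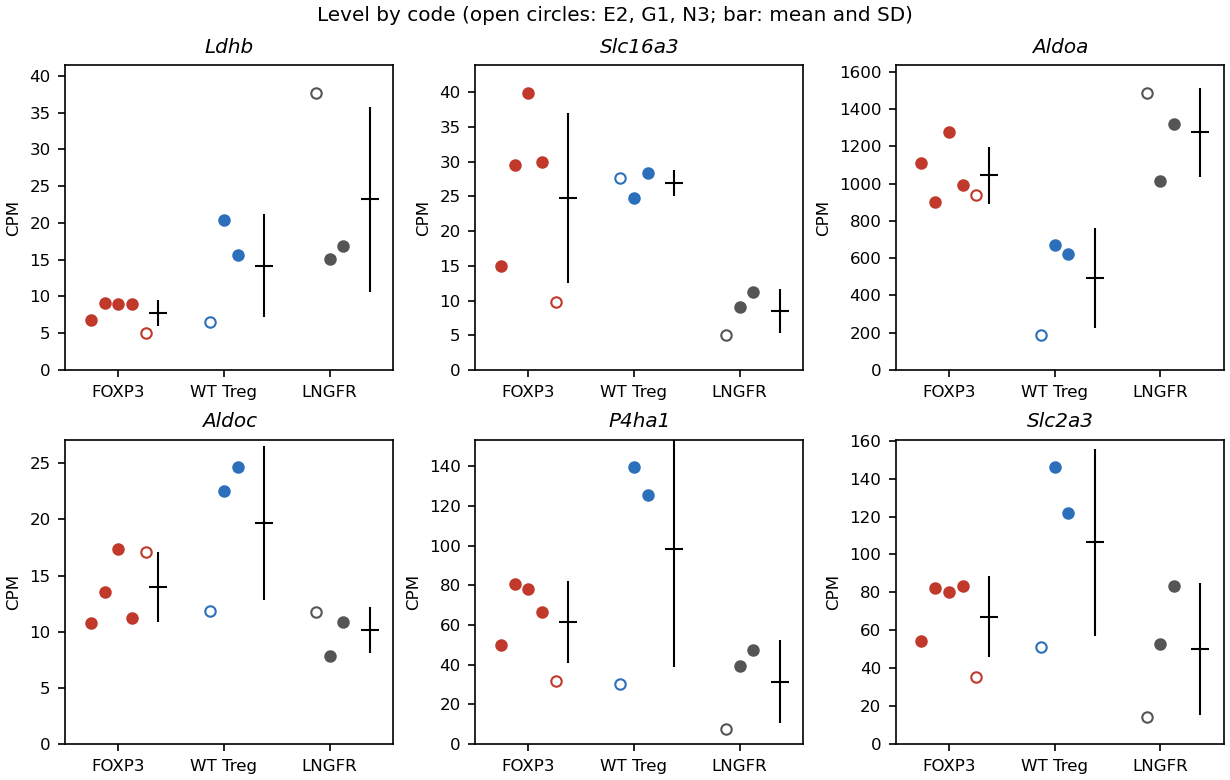
CPM of 6 members in each code by group, with E2, G1 and N3 as open circles and the mean with 1 SD beside the points. Ldhb is 5.01 to 9.12 CPM in FOXP3 and 15.1 to 37.7 CPM in LNGFR codes, and in Aldoc, P4ha1 and Slc2a3 WT Treg codes G4 and L1 lie above all others.

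Of the 4 oxygen-sensing genes, Hif1a, Egln3 and Vhl overlapped between all groups with all codes, and Egln1 between all but FOXP3 and LNGFR. Hif1a, the oxygen-labile subunit of HIF1, had 187, 298, 335, 357 and 208 CPM in FOXP3 codes, 146, 266 and 259 CPM in WT Treg codes, and 66.9, 242 and 221 CPM in LNGFR codes. Only G1 and E2 stood below all FOXP3 codes, and the log2 fold change of FOXP3 against WT Treg was 0.30 ± 0.41 (adjusted p = 0.752). Egln3, a hydroxylase that HIF itself induces, had 30.4, 27.7, 47.3, 39.0 and 31.4 CPM in FOXP3 codes, 22.4, 27.3 and 42.2 CPM in WT Treg codes, and 33.6, 49.8 and 61.3 CPM in LNGFR codes. LNGFR codes G2 and G3 were the highest, with log2 fold changes of -0.46 ± 0.28 for FOXP3 (adjusted p = 0.629) and -0.62 ± 0.33 for WT Treg (adjusted p = 0.385), each against LNGFR. Egln1, the main oxygen-sensing hydroxylase, ran from 9.13 to 15.3 CPM in FOXP3 and from 15.7 to 20.97 CPM in LNGFR codes, which do not overlap by a small margin (log2 fold change -0.42 ± 0.33, adjusted p = 0.702). Vhl stood at 38.6 ± 7.89 CPM in FOXP3, 31.6 ± 8.598 CPM in WT Treg and 27.2 ± 15.4 CPM in LNGFR.

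The 7 hypoxia response genes had log2 fold changes of -0.44 to 0.95 in FOXP3 against LNGFR, -0.67 to 1.66 in WT Treg against LNGFR and -0.71 to 0.75 in FOXP3 against WT Treg, with 4, 3 and 4 above 0. Bnip3, a receptor for the removal of mitochondria, had 6.46, 6.52, 13.2, 10.2 and 10.5 CPM in FOXP3 codes, 3.95, 5.01 and 7.06 CPM in WT Treg codes, and 3.36, 7.04 and 4.56 CPM in LNGFR codes. FOXP3 codes F5, N2 and N3 were above all codes of both other groups. The log2 fold change was 0.89 ± 0.39 against LNGFR (adjusted p = 0.446) and 0.75 ± 0.39 against WT Treg (adjusted p = 0.382). P4ha1, a subunit of collagen prolyl 4-hydroxylase (ENSMUSG00000019916.14, GRCm38 chromosome 10, 59323296 to 59373304, plus strand), had 50.1, 80.9, 78.3, 66.7 and 31.7 CPM in FOXP3 codes, 30.3, 140 and 126 CPM in WT Treg codes, and 7.73, 39.2 and 47.5 CPM in LNGFR codes. WT Treg codes G4 and L1 exceeded all other codes and E2 was below all FOXP3 codes. In WT Treg against LNGFR the log2 fold change was 1.66 ± 0.62 (adjusted p = 0.25), and 2.06 ± 0.56 without E2 (adjusted p = 0.109), and limma called it with all codes (adjusted p = 0.0141). In FOXP3 against WT Treg it was -0.71 ± 0.53 (adjusted p = 0.547).

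With all codes, the remaining hypoxia genes had group means within 2-fold of each other. Ddit4, an inhibitor of mTORC1, stood at 33.2 ± 13.8 CPM in FOXP3, 50.8 ± 16.4 CPM in WT Treg (57.1 ± 17.3 CPM without E2) and 27.6 ± 15.2 CPM in LNGFR, and WT Treg against LNGFR without E2 was 2.06-fold (adjusted p = 0.421). Mif, a cytokine, stood at 172 ± 32.0 CPM in FOXP3, 124.6 ± 71.7 CPM in WT Treg and 202 ± 131 CPM in LNGFR, with 353 CPM in G1. Ero1l, an oxidase of protein folding, stood at 34.4 ± 13.5 CPM in FOXP3, 35.0 ± 3.96 CPM in WT Treg and 46.1 ± 26.5 CPM in LNGFR. Bnip3l and Higd1a, a mitophagy receptor and a mitochondrial membrane protein, made up the 7.

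Isozyme shares compare 2 or 3 genes within a code, so a factor that scales both alike cancels. As a share of CPM per kb, Ldhb made up 0.691% to 1.01% of Ldha and Ldhb together in FOXP3 codes, 2.28% to 3.44% in WT Treg codes and 2.04% to 4.55% in LNGFR codes. E2 had 3.44%, a share that rests on only 4 Ldhb counts in its first library and 1 in its second, and N3 had 0.889%. FOXP3 codes thus did not overlap either other group. Aldoc made up 0.862% to 1.60% of both aldolases in FOXP3, 2.90% to 5.35% in WT Treg and 0.684% to 0.731% in LNGFR codes, also without overlap. The 5.35% is that of E2 and rests on 9 Aldoc counts in its first library and 0 in its second. Slc2a3 made up 33.7% to 52.9% of both glucose transporters in FOXP3, 61.1% to 72.1% in WT Treg and 32.1% to 50.5% in LNGFR codes, where WT Treg stood apart and FOXP3 and LNGFR overlapped. The shares of Hk2, Pfkl, Eno3, Slc16a3, Pfkfb4 and Egln3 overlapped between FOXP3 and LNGFR. Over 9 families and 3 comparisons, chosen after values were seen, 27 exact two-sided permutation tests were run. They compared group means of the log odds of the share, the logarithm of the share over its remainder. The Ldhb share differed by -2.12 percentage points between FOXP3 and LNGFR and by -2.08 between FOXP3 and WT Treg, each with exact p = 0.0179, the smallest that 5 against 3 codes allow (0.1 for 3 against 3), and adjusted p = 0.161. The Aldoc share differed by -2.69 percentage points between FOXP3 and WT Treg, with the same exact and adjusted p. None of the 27 passed after adjustment. Those of WT Treg against LNGFR could not, because their smallest possible p was 0.1. A share at the floor of 0.0179 could not pass by itself either, because adjustment over 27 tests needs many of them at that floor. The adjusted values therefore do not decide whether a share differs.

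**Figure D4:**
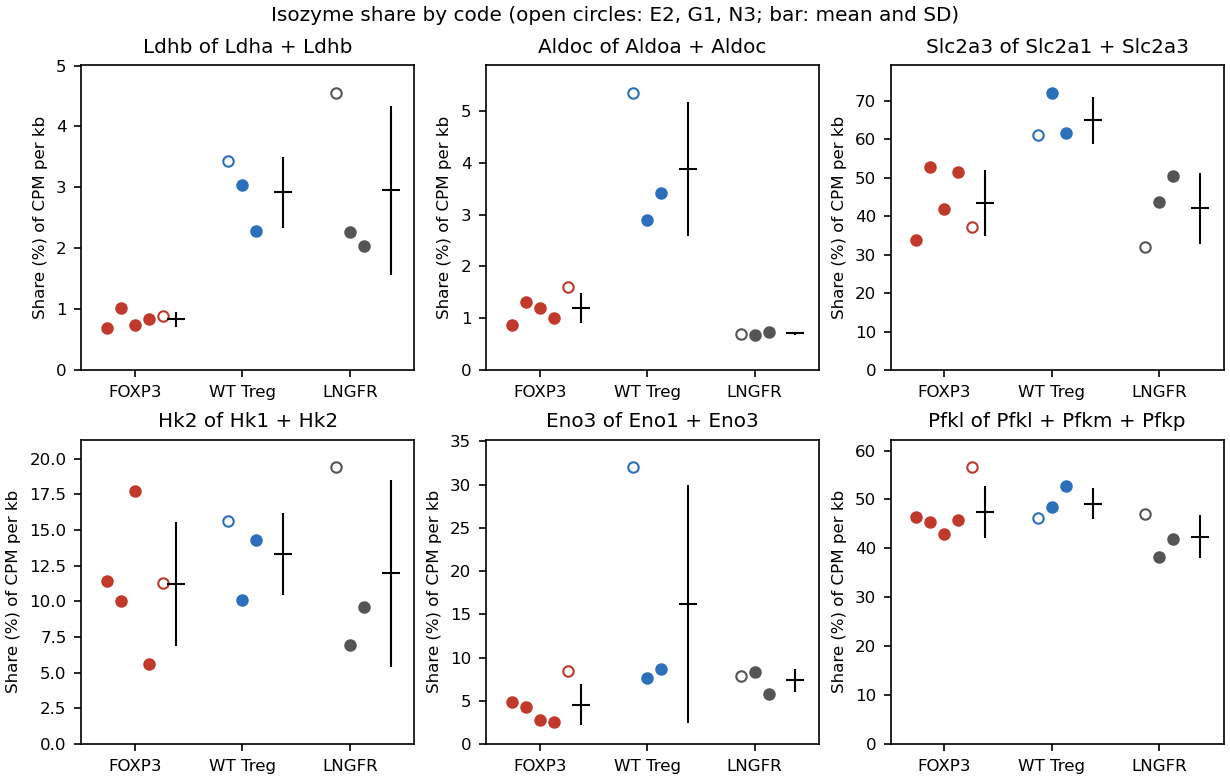
Share of 1 isozyme in its family, in % of CPM per kb, in each code by group, with E2, G1 and N3 as open circles and the mean with 1 SD beside the points. The Ldhb share is lowest in all 5 FOXP3 codes, at most 1.01%, and the Aldoc and Slc2a3 shares are highest in all 3 WT Treg codes.

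Genes of the same pathways outside the 36 were read from lists of 82 genes found in the table, of which 67 were tested. With all codes, calls fell on 2 of them. Stc2, the hypoxia-induced glycoprotein stanniocalcin 2, had 22.3, 14.3, 21.03, 16.3 and 23.1 CPM in FOXP3 codes, 7.90, 4.69 and 7.59 CPM in WT Treg codes, and 47.4, 54.7 and 62.6 CPM in LNGFR codes. The 3 groups did not overlap. Stc2 fell by 1.502 on the log2 scale in FOXP3 (SE 0.24, edgeR adjusted p = 0.0149) and by 3.08 in WT Treg (SE 0.32, adjusted p = 0.000597), each against LNGFR, and was 1.58 ± 0.29 higher in FOXP3 than in WT Treg (adjusted p = 0.0441). Leaving out single codes kept the direction, with a highest adjusted p of 0.259 for FOXP3 against LNGFR (without G2), 0.0143 for WT Treg against LNGFR (without G4), and 0.122 between FOXP3 and WT Treg (without F1). Epas1, the other HIF alpha subunit, had 142, 87.9, 126, 111 and 123 CPM in FOXP3 codes, 6.58, 68.1 and 43.2 CPM in WT Treg codes, and 134, 217 and 438 CPM in LNGFR codes. It fell by 2.67 in WT Treg against LNGFR (SE 0.60, adjusted p = 0.048), with a highest adjusted p of 0.259 without G3. Both stayed called without E2. Of 18 tested other hypoxia response genes, Stc2 was the 1 that passed in each comparison, and of 10 tested genes of the sensing machinery Epas1 in 1 comparison. In the lists of other glycolysis isozymes (10 tested), mitochondrial pyruvate entry (11), the pentose phosphate pathway (8) and regulators such as Myc (10), edgeR called 0 with all codes and without E2.

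Without E2, G1 and N3, members were called in all 3 comparisons, on 4, 2 and 2 codes. In FOXP3 against LNGFR 5 members were higher and 2 lower of 36, beside 10.7% of all genes called. Slc16a3 was higher by 1.48 ± 0.34 (edgeR adjusted p = 0.0156), P4ha1 by 0.67 ± 0.19 (adjusted p = 0.0398), Mif by 0.54 ± 0.13 (adjusted p = 0.0156), and Pkm and Ldha by 0.50 and 0.49. Mif thereby changed sign, from the -0.23 ± 0.44 it had with all codes; the other members called in this fit kept the sign they had with all codes. Lower were Ldhb at -0.92 ± 0.23 (adjusted p = 0.0235) and Pdk1 at -0.82 ± 0.23 (adjusted p = 0.0427). In WT Treg against LNGFR P4ha1 (1.61 ± 0.21), Slc16a3 (1.38), Aldoc (1.32) and Slc2a3 (0.98) were higher, and Aldoa (-0.85) and Pfkp (-0.65) lower, beside 7.66% of all genes. In FOXP3 against WT Treg Aldoa (0.72), Ldha (0.64), Eno1 (0.59) and Pgk1 (0.58) were higher and Ldhb (-1.09), P4ha1 (-0.95) and Slc2a3 (-0.84) lower, beside 7.42% of all genes. The share of members called was above that of all genes in each. Of the pathway genes outside the 36, Tkt, Taldo1 and G6pdx of the pentose phosphate pathway were higher in FOXP3 than in LNGFR by 0.62, 0.40 and 0.74 on the log2 scale (adjusted p = 0.00304, 0.0286 and 0.0121), 3 of 8 tested, and Tkt, a transketolase, also in WT Treg against LNGFR by 0.48 (adjusted p = 0.0309). Among 10 other glycolysis isozymes 1 was lower in each comparison, Adpgk (-0.73) in FOXP3 against LNGFR, Slc2a8 (-0.95) in WT Treg against LNGFR and Eno2 (-1.87) in FOXP3 against WT Treg, and of 11 genes of mitochondrial pyruvate entry Pdhx was higher in FOXP3 than in WT Treg (0.71). Of 18 other hypoxia response genes, 2 were higher and 4 lower in FOXP3 against LNGFR, 1 higher and 2 lower in WT Treg against LNGFR, and 2 higher and 1 lower in FOXP3 against WT Treg. Stc2 was called in each. Tpd52 was lower in FOXP3 (-1.38) and WT Treg (-1.17) than in LNGFR, and Ndrg1 higher in FOXP3 than in LNGFR (1.28) and in WT Treg (1.07). Kdm4b, a histone demethylase, was lower in FOXP3 than in WT Treg (-0.98), and Rora higher in WT Treg than in LNGFR (0.82). Of 10 genes of the sensing machinery, Epas1 was lower in FOXP3 (-1.49) and in WT Treg (-2.56) than in LNGFR, and Elob higher in FOXP3 than in LNGFR (0.49). The regulators had 0 calls. The codes left out were picked for depth, B cell RNA and levels in these same data.

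The 3 codes moved many members at once. E2 was the lowest WT Treg code for 29 of 36 members, beside 50.6% of all genes, with a median log2 ratio to G4 and L1 of -1.16 against -0.20 over all genes. Ldha in E2 was 0.28 times its mean in G4 and L1, whereas Slc16a3 was 1.04 times and Eno3 1.55 times. G1 was the lowest LNGFR code for 24 members (44.5% of all genes) and the highest for 10 (43.7% of all genes), with a median log2 ratio of -0.80 against -0.02 over all genes. Slc16a1 in G1 was 0.119 times and Pkm 0.331 times the mean of G2 and G3, while Ldhb was 2.36 times and Mif 2.79 times. N3 was the lowest FOXP3 code for 19 members (29% of all genes) with a median log2 ratio of -0.36, and F5 the highest for 24 (15.3% of all genes).

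The ratio of a code to the other codes of its group went with exon length in several codes. Across 35 members, which share their libraries and are not independent, Spearman's rho between ratio and exon length was -0.432 in FOXP3 code F1, -0.56 in LNGFR code G1, 0.436 in G2 and 0.464 in G3, and lay between -0.194 and 0.276 in the other 7 codes, at -0.00476 in N3 and 0.113 in E2. Over 8767 genes of at least 10 CPM it ran from -0.4 in G4 to 0.442 in E2. In F1 it was -0.347, in N3 0.214, in L1 -0.33 and in G1 -0.287. Each ratio is taken to the other codes of the group, so an odd code in a small group pushes the others the opposite way. The values of codes of a group are therefore not independent, and rho does not tell which code is the odd one. Among short members Mif (0.745 kb) and Ldhb (1.57 kb) were high in G1 and Ddit4 (1.755 kb) was low, at 0.471 times the mean of G2 and G3. Among longer ones Slc16a1 (4.43 kb) and P4ha1 (4.11 kb) were low, P4ha1 at 0.178 times, and Gapdh (4.13 kb) was high, at 1.54 times. The part of length in the group differences was not tested.

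**Figure D5:**
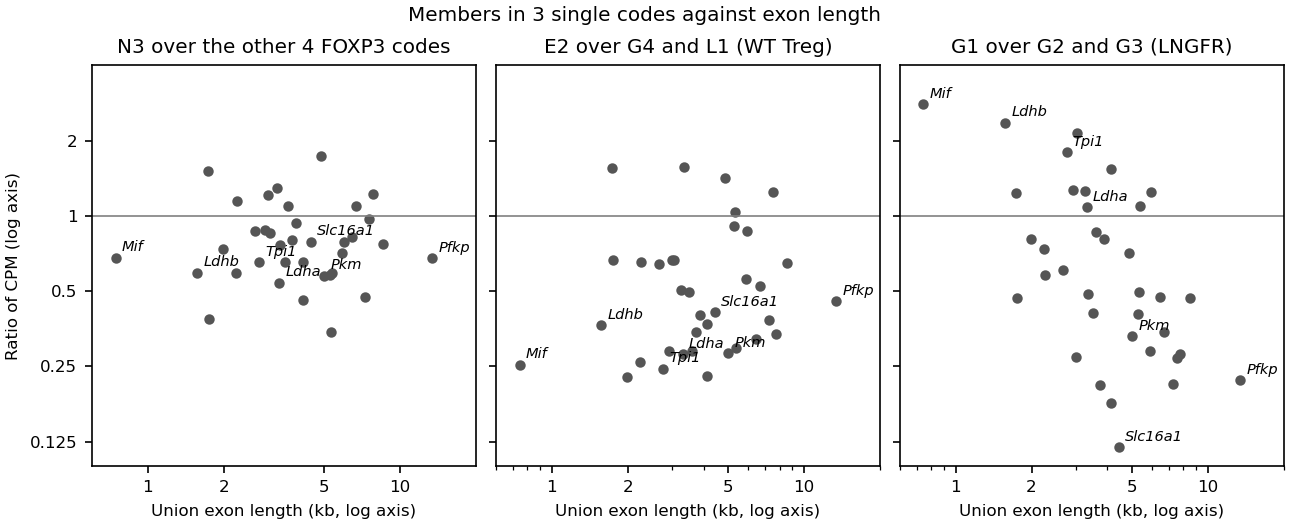
Ratio of CPM in N3, E2 and G1 to the mean of the other codes of their group, for 36 members, against union exon length in kb, on log axes. In G1 the ratio is highest for the short genes Mif and Ldhb (2.79 and 2.36) and lowest for Slc16a1 (0.119), and in E2 most members lie below 1.

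Summed over the 36 members, RNA was 8276, 8003, 10640, 9330 and 6108 CPM in FOXP3 codes F1, F2, F5, N2 and N3, 2449, 7055 and 7021 CPM in WT Treg codes E2, G4 and L1, and 6536, 6924 and 7965 CPM in LNGFR codes. FOXP3 codes other than N3 lay above all others, F2 by a small margin over LNGFR code G3. Summed over the 17 enzymes of the hexose steps, the triose steps and lactate dehydrogenase, F2 (6682 CPM) lay below G3 (6745 CPM). FOXP3 codes F1, F2, F5 and N2 had the highest sums of dividing-cell genes, 1574 to 2287 CPM. N3, with 427.8 CPM, lay below all LNGFR codes in both sums, narrowly so for the dividing-cell genes. The part of cell division in the members' levels was not tested. WT Treg codes G4 and L1 had 851 and 1008 CPM of dividing-cell genes, above the LNGFR codes, with member sums in the LNGFR range.

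Members most like one another over the codes were found by Pearson's correlation of log2(CPM + 1). The pattern of Ldha was nearest to Eno1 (0.992 over 11 codes), Pgk1 (0.97) and Gapdh (0.955), enzymes of the same route, and without E2 these were 0.962, 0.867 and 0.81 over 10 codes. Slc16a3 was nearest to P4ha1 (0.772), Slc2a3 (0.755) and Slc16a1 (0.721). Ldhb was nearest to Higd1a (0.655), Mif (0.535) and Egln1 (0.449), the first 2 of which share with it a high level in G1. All share the depth and scaling of the same libraries, and the Gapdh, Eno1, Pgk1, Pgam1 and Ldha rows may share reads with processed copies, although rows named as copies held at most 1.25% of the counts of member and copies.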

How the data were processed

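Polyadenylated RNA of 1000 sorted cells per library was reverse transcribed, cut with Tn5, amplified and sequenced in pairs without molecular identifiers, per the labels' protocols, so PCR copies are counted too. For 22 libraries the authors deposited whole-number read counts by gene symbol, not normalized as far as the values show. STAR 2.7.3a, featureCounts and Subread 2.0.0 with mm10 (GRCm38) were used, per the submitters' processing notes. The annotation, strand setting and handling of multi-mapped reads are, in the sources used here, not given, so overlapping genes and copies may hold each other's reads.

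Groups came from titles. Libraries held 332570 to 5453375 counts, and the 2 libraries of a code were summed. The 3 groups were fitted together in edgeR 4.0.16 (R 4.3.3) by the robust quasi-likelihood test with TMM and filterByExpr, at a Benjamini-Hochberg adjusted p under 0.05 over all genes, with a common biological coefficient of variation of 0.491. The SE given for a fold change is the size of its log2 divided by the square root of F. A span of 1.96 SE on either side is, with so few codes, narrower than a 95% interval of the test. Simulated counts with known changes were used to test the fit. The members and lists were chosen with earlier results of these data known, so no p is adjusted over a list and no set test was run. Values in every code are given for members past the threshold with all codes or without E2 and for the member with the smallest p per role and comparison. Up to 3 called genes per pathway list and comparison are named, and other values are for members set apart by code or chosen after their values were seen. Alternatives were DESeq2 1.42.0, limma 3.58.1, other scaling and filters, and codes or libraries left out. Promoters are those of RefSeq on GRCm38.p6, and positions and exon lengths those of GENCODE M21 on GRCm38. No protein sequences were used here.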

Additional observations from a re-analysis of the deposited data

How the results depend on the processing

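Counts of calls depended on the settings, and the cause was not tested. The number of genes tested also changed with the setting, so the counts below are not shares of all genes. Counts of members below are listed only and are not read as above or below a background. For FOXP3 against LNGFR, 84 genes were called with all codes, and 14 (without G2) to 273 (without N3) with 1 code left out. The count was 250 without the 3 weak libraries, 1565 without E2, G1 and N3, 329 with no filter, 357 with DESeq2, 1048 with limma voom and 184 with the 2 groups alone. Members called were 0 to 1 with 1 code left out, 1 without the weak libraries, with no filter and with DESeq2, 7 without E2, G1 and N3, and 2 with limma voom. With the first library of each code 1 member was called, for which no count over all genes is given here as background. For WT Treg against LNGFR, 201 genes were called, 37 (without L1) to 299 (without E2) with 1 code left out, 318 without the weak libraries, 1125 without E2, G1 and N3, 1000 with no filter, 874 with DESeq2, 867 with limma voom and 58 with the 2 groups alone. Members called were 0 to 1 with 1 code left out, 6 without E2, G1 and N3, 1 with no filter, 2 with DESeq2 and 3 with limma voom. For FOXP3 against WT Treg, 40 genes were called, 4 (without L1) to 1230 (without G4) with 1 code left out, 66 without the weak libraries, 1090 without E2, G1 and N3, 63 with RLE size factors, 3615 with no filter, 3220 with DESeq2, 1066 with limma voom, 135 with the 2 groups alone and 77 with the first library of each code. Members called were 0 with 1 code left out, 7 without E2, G1 and N3, 1 with DESeq2 and 3 with limma voom.

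The members' median log2 fold change ran, with 1 code left out, from 0.074 to 0.57 in FOXP3 against LNGFR, from -0.30 to 0.11 in WT Treg against LNGFR and from 0.0762 to 0.56 in FOXP3 against WT Treg, and was 0.45 in the last with no filter. Over 35 fold changes of single genes, 358 of 385 values with 1 code left out kept direction and side of the threshold, 3 gained a call, 23 lost one (those of Stc2 and Epas1) and 1 changed sign. That was Pfkfb4 in FOXP3 against LNGFR, which ran from -0.57 without N3 to 0.12 without G2 (adjusted p = 0.931). Of 350 values under other settings 318 kept both, 27 gained a call, 4 lost one and 1 changed sign, Pfkfb3 in FOXP3 against WT Treg at -0.0869 with the first libraries (adjusted p = 0.956). No paired analysis was possible because the codes share no number that ties samples of different groups. E2 and G1 were shallow, so levels of a few CPM there rest on few counts, such as 5 for Ldhb in E2.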
